A study of Mus musculus with 18 samples.

Results

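The comparison described here is the effect of IL-4 on naive CD8 T cells that were kept in IL-7. It sets 2 arrays of naive cells cultured with IL-4 and IL-7 against 2 arrays of naive cells cultured with IL-7 alone, chosen by their titles, which makes 4 of the 18 arrays of the study. All cells came from F5 mice, whose T cells carry a transgenic T cell receptor, on the C57Bl/6 background. CD8 T cells were sorted from spleen by flow cytometry, and the cultured cells spent 20 hours in culture, with IL-7 at 10 ng/mL in both groups and with IL-4 at 20 ng/mL in the treated group. The naive cells were titled naive and described so in the design, although the source label of the same arrays reads naive CD8 memory cells. For orientation, levels are also given on the 2 arrays of naive cells taken directly after sorting, called ex vivo. The response is set beside that of TIM memory cells, which came from F5 mice immunised with the NP68 peptide, and were cultured in the same 2 ways (2 arrays each). Naive cells in medium alone or in IL-4 alone were not among the groups, so every effect given here is that of IL-4 on top of IL-7. The age of the mice, and whether animals were pooled, are not given in the labels. According to the design, 2 naive populations were sorted and each was divided over the conditions, but no label says which array came from which population. Nothing says either that the populations came from separate animals, so the spread behind the p-values is that between arrays and may in part be technical.

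IL-4 binds a receptor made of the IL-4 receptor alpha chain and the common gamma chain, and it acts through the kinases JAK1 and JAK3 and the transcription factor STAT6. IL-7 uses its own alpha chain with the same common gamma chain and acts mainly through STAT5, which keeps resting naive T cells alive. In CD8 T cells, IL-4 is known to induce the T-box factor Eomes and to support memory-like cells, and in other lymphocytes it is the main inducer of the type 2 programme.

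Each value below is a level on the log2 scale of the RMA summary (the authors' background-corrected and normalized signal of a probe set), so a difference of 1 is a 2-fold difference. The change is the mean of the IL-4 and IL-7 arrays minus the mean of the IL-7 arrays, with its standard error (SE), from a single limma fit over all 18 arrays. The adjusted p is the Benjamini-Hochberg value of limma's two-sided test over all 13770 genes tested, and a gene is said to have risen or fallen when it is under 0.05. Values are listed as IL-7 array 1 and array 2, then IL-4 and IL-7 array 1 and array 2, shortened below to IL-4 array 1 and array 2.

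The arrays carried the identity of CD8 T cells. Cd8a, the gene of the alpha chain of the coreceptor, read 13.10 and 12.75 with IL-7 and 12.99 and 13.21 with IL-4, and Cd8b1 read between 12.57 and 12.77 on the 4 arrays. Of the 7 tested CD8 T cell markers, 0 passed. On both IL-4 arrays 3 of them were lower than on both IL-7 arrays: Cd3g (-0.66), Thy1 (-0.63) and Cd3d (-0.44). Cd247 was higher on both (0.53). Cd4 lay between 4.55 and 4.93, the B cell gene Ms4a1 between 3.02 and 3.49 and the macrophage gene Lyz2 between 4.12 and 4.48, against a filter value of 4.06 for dim genes. Single markers of other cells were brighter: the B cell gene Cd79b lay between 7.37 and 8.08, the platelet gene Itga2b between 8.10 and 8.43 and the CD4 lineage factor gene Zbtb7b between 6.12 and 6.41. None of the tested markers of CD4 T cells (4), B cells (5), myeloid cells (6), NK cells (4), red cell precursors (2) or platelets (4) passed the test, and 0 of the 4 mast cell and basophil markers on the array were bright enough to be tested. The summed linear level of the B cell markers was 316 and 346 with IL-7 and 245 and 318 with IL-4, and that of the NK cell markers was 64.7 and 63.8 with IL-7 and 60.6 and 54.8 with IL-4. That of the red cell markers was higher with IL-4, at 51.5 and 41.3 with IL-7 and 55.1 and 59.4 with IL-4. The 2 tested red cell markers, Alas2 (change 0.54, SE 1.26) and Slc4a1 (change 0.06, SE 1.23), had a wide spread. A modest shift in them could not pass. In bulk samples, fewer cells of a type and less RNA per cell cannot be told apart. The IL-7 arrays correlated with each other at r = 0.989 over the genes tested and the IL-4 arrays at r = 0.975. IL-4 array 2 correlated with IL-7 array 2 at r = 0.989, more closely than with its own replicate. A control for RNA integrity or labelling, the 3' minus 5' difference of the Actb probe sets, read 1.64 and 1.63 on the IL-7 arrays and 2.09 and 1.99 on the IL-4 arrays, so it moved with the treatment. The same difference for Gapdh read 3.05 and 2.67 with IL-7 and 2.88 and 2.87 with IL-4. The part of RNA quality in the results was not tested.

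IL-4 changed few genes, and more of them rose than fell. Of the 13770 genes tested, 173 passed (1.26%), of which 121 rose (0.879%) and 52 fell (0.378%). The median rise was 1.61 and the median fall was -1.30, against a median change of 0 over all genes and a median SE of 0.23. Among the risers, 109 were raised at least 2-fold, 37 at least 4-fold and 6 at least 16-fold. Among the fallers, 36 were lowered at least 2-fold, 6 at least 4-fold and 0 at least 16-fold. For all 173 genes the 2 IL-4 arrays lay on one side of both IL-7 arrays. By itself that separation is common, since 19.3% of all genes tested had both IL-4 arrays above both IL-7 arrays and 16.9% had both below. With an unadjusted p under 0.05, 1202 genes passed.

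The count of genes depended on single arrays. It was 42 up and 8 down when the first IL-7 array was left out and 65 and 15 when the second was. Leaving out the first IL-4 array gave 64 and 14, and leaving out the second gave 233 and 439. One array outside both groups also mattered through its share in the estimate of spread: with replicate 2 of memory cells in medium left out, 192 genes were up and 98 down.

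The largest rises were in genes that do not belong to a single pathway. Cbr3, which encodes a carbonyl reductase, read 4.81 and 4.98 with IL-7 and 10.65 and 9.70 with IL-4, a rise of 5.28 (SE 0.28, adjusted p = 3.1e-07). Pros1 encodes protein S, a plasma anticoagulant that is also a ligand of the TAM receptor kinases. Its levels were 4.85 and 4.46 with IL-7 and 9.46 and 9.28 with IL-4, a rise of 4.71 (SE 0.33, adjusted p = 1.75e-06). The hexose transporter gene Slc2a6 went from 3.79 and 4.48 to 8.17 and 8.89, a rise of 4.40 (SE 0.28, adjusted p = 1.31e-06). On the ex vivo arrays these 3 genes were as low as in IL-7, with means of 5.34, 4.56 and 3.84. Ncoa7, a coactivator of nuclear receptors, rose from 7.81 and 8.01 to 12.13 and 12.09, by 4.20 (SE 0.35, adjusted p = 1.32e-05), and its IL-4 arrays lay among the brightest named here.

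For 3 of the largest risers the IL-7 level lay far under the level of freshly sorted cells, and the IL-4 level lay near it. Frmd4b, a FERM domain scaffold gene with the largest rise of the comparison, read 9.67 and 9.86 ex vivo, 3.06 and 5.49 with IL-7, and 10.31 and 10.42 with IL-4. The rise was 6.09 (SE 1.16, adjusted p = 0.0183), and its 2 IL-7 arrays differed more from each other than those of the other top genes. Dusp10, which encodes a phosphatase that inactivates the p38 and JNK kinases, read 12.50 and 12.23 ex vivo, 8.20 and 7.98 with IL-7, and 12.46 and 11.74 with IL-4, a rise of 4.01 (SE 0.75, adjusted p = 0.0157). Spsb1, a SOCS box adaptor gene, read 8.71 and 9.41 ex vivo, 5.85 and 6.23 with IL-7, and 9.57 and 9.01 with IL-4, a rise of 3.25 (SE 0.68, adjusted p = 0.0348). Of the other probe sets of Frmd4b, 1 rose by 4.62 and the 2 dimmer ones tested changed by 1.61 and 0.18 without passing. Of the 3 other probe sets of Spsb1, none passed, with changes between -0.26 and 1.26. Frmd4b lost the call when the first IL-7 array (adjusted p = 0.256) or the first IL-4 array (adjusted p = 0.122) was left out. Dusp10 and Spsb1 lost the call with either IL-7 array or the first IL-4 array left out (adjusted p 0.128 to 0.261).

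**Figure D1:**
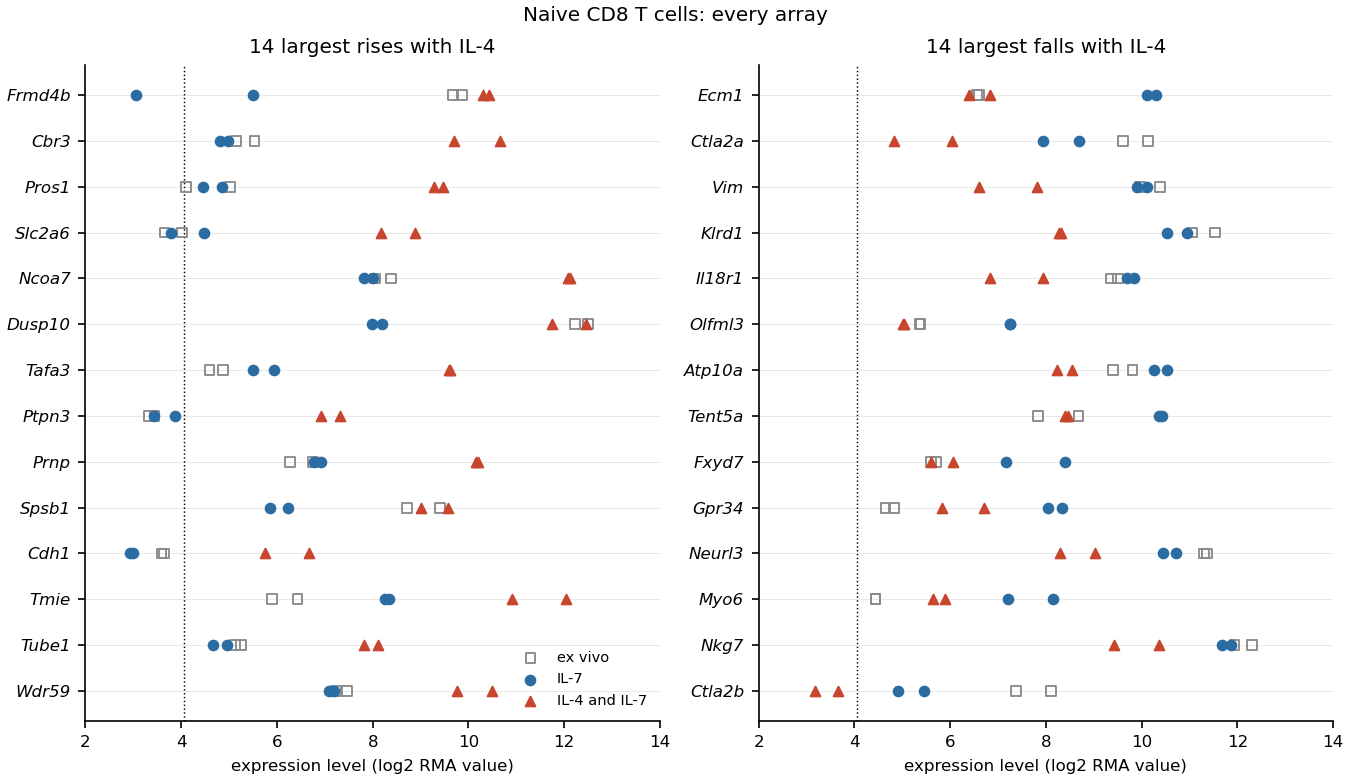
Level of each of the 14 genes with the largest rise (left) and the 14 with the largest fall (right) on every naive array, in log2 units (RMA); circles are IL-7 arrays, triangles IL-4 and IL-7 arrays, open squares ex vivo arrays, and the dotted line is the filter value of 4.06. Triangles and circles do not overlap for any gene, while the ex vivo squares sit near the triangles for Frmd4b, Dusp10, Spsb1 and Ecm1 and near the circles for Cbr3, Pros1 and Klrd1.

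The other 7 of the 14 largest risers were Tafa3, Ptpn3, Prnp, Cdh1, Tmie, Tube1 and Wdr59. Tafa3, a gene for a small secreted protein, rose from 5.94 and 5.50 to 9.62 and 9.60. Prnp, which encodes the cellular prion protein, rose from 6.78 and 6.93 to 10.16 and 10.19, and its second probe set rose by 1.94. Wdr59, a subunit of the GATOR2 complex that links amino acids to mTORC1, rose from 7.09 and 7.20 to 10.49 and 9.76. The IL-4 arrays of Tafa3 and Prnp were almost identical, while those of Wdr59 differed by less than its rise. Tube1, the epsilon tubulin gene, rose by 3.16 (SE 0.27) and a second probe set of it by 3.28. Cdh1, the E-cadherin gene, lay under the filter value on both IL-7 arrays (2.92 and 3.0) and at 6.66 and 5.75 with IL-4, so the size of its rise of 3.24 is uncertain. Tmie, known for its role in inner ear hair cells, rose from 8.25 and 8.34 to 12.03 and 10.91, by 3.18 (SE 0.59), and lost the call with either IL-7 array or the first IL-4 array left out (adjusted p 0.111 to 0.202). Of these 14 genes, Cbr3, Pros1, Slc2a6, Ncoa7, Tafa3, Ptpn3, Prnp, Cdh1, Tube1 and Wdr59 passed without any 1 of the 4 arrays.

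The largest fall was in Ecm1, the gene of extracellular matrix protein 1, from 10.11 and 10.31 with IL-7 to 6.40 and 6.84 with IL-4. It fell by 3.59 (SE 0.25, adjusted p = 1.75e-06) to the ex vivo level (6.61 and 6.56). Olfml3, a secreted glycoprotein gene, fell from 7.25 and 7.24 to 5.01 and 5.04, also to near its ex vivo level of 5.36 and 5.38. Atp10a, a phospholipid flippase gene, fell from 10.52 and 10.25 to 8.54 and 8.24, and its 2 other tested probe sets fell by 2.14 and 1.80. These 3 genes passed without any 1 of the 4 arrays.

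A second set of falls took genes under both the IL-7 and the ex vivo level. Klrd1, the gene of the lectin-like receptor chain CD94, read 11.54 and 11.05 ex vivo, 10.94 and 10.52 with IL-7, and 8.31 and 8.28 with IL-4. Nkg7, which encodes a membrane protein of cytotoxic granules, read 11.87 and 11.68 with IL-7 and 9.43 and 10.36 with IL-4, a fall of 1.88 (SE 0.41, adjusted p = 0.041). Vim, the gene of the intermediate filament protein vimentin, read 10.12 and 9.91 with IL-7 and 7.81 and 6.61 with IL-4, and all 3 of its probe sets fell, with changes of -2.81, -2.88 and -3.03. The ex vivo mean of each of these 3 genes lay above its IL-7 mean. Il18r1, the gene of the ligand-binding chain of the IL-18 receptor, fell from 9.84 and 9.70 to 6.84 and 7.93, by 2.39 (SE 0.31, adjusted p = 0.000748), and passed without any 1 of the 4 arrays. Ctla2a read 7.94 and 8.70 with IL-7 and 4.83 and 6.04 with IL-4, and Ctla2b 4.91 and 5.45 with IL-7 and 3.66 and 3.17 with IL-4. Both encode proteins related to the propeptide of cathepsins and are close copies of each other, so signal between them may be shared. Neurl3, a ubiquitin ligase gene, fell from 10.44 and 10.71 to 9.03 and 8.29.

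Of this set, Klrd1 lost the call when the first IL-7 array (adjusted p = 0.127) or the first IL-4 array (adjusted p = 0.0578) was left out. Vim lost the call with either IL-7 array or the second IL-4 array left out (adjusted p 0.0822 to 0.234). Nkg7 and Ctla2a lost the call with either IL-7 array or the first IL-4 array left out (adjusted p 0.117 to 0.419). Ctla2b and Neurl3 missed it without each of the 4 arrays in turn (adjusted p 0.0709 to 0.31).

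The remaining large falls were in Tent5a, Fxyd7, Gpr34 and Myo6, and each of these genes was lower ex vivo than in IL-7. Gpr34, a receptor gene for lysophosphatidylserine, read 4.82 and 4.65 ex vivo, 8.04 and 8.34 with IL-7, and 5.83 and 6.71 with IL-4. Tent5a, a poly(A) polymerase gene, fell from 10.42 and 10.36 to 8.39 and 8.47. Fxyd7, which encodes a regulator of the sodium pump, fell by 1.95 and Myo6, a myosin gene, by 1.91. Gpr34 and Tent5a lost the call with either IL-7 array or the first IL-4 array left out (adjusted p 0.0735 to 0.166). Fxyd7 lost the call when the second IL-7 array (adjusted p = 0.42) or the first IL-4 array (adjusted p = 0.335) was left out, and Myo6 without IL-7 array 1 (adjusted p = 0.173).

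The promoters of these genes were searched for the letters that STAT proteins are known to prefer, on both strands, in a window from 250 bases before to 50 after each RefSeq gene start (GRCm38.p6). The STAT6-type motif, TTC and GAA with 4 free bases between them, was in a window of 14 of the 94 risers that had a window (14.9%), of 3 of 39 fallers (7.69%), of 6.57% of all genes tested and of 8.01% of all genes in the table. The STAT5-type motif, TTCNNNGAA, whose spacer is 1 base shorter and whose matches were counted separately even where they overlap, was in 11.7% of the risers, 10.3% of the fallers, 8.23% of the genes tested and 9.55% of all genes. These shares are descriptions without a test, a match is not a binding site, and genes without the letters in this window may hold them elsewhere. Of the 28 genes with the largest rises and falls, 24 had a window and 3 of those had a STAT6-type match, all on the side before the start. Their 250 bases before the start are printed 5' to 3' on the gene's strand, with the matching letters in capitals, because they show 2 genes that rose and 1 that fell with the same kind of match. That of Pros1 lies on the plus strand at chr16:62854057-62854306, that of Ncoa7 on the minus strand at chr10:30655868-30656117, and that of Il18r1 on the plus strand at chr1:40465302-40465551. The match begins 222 bases before the start in Pros1, 191 in Ncoa7 and 119 in Il18r1.
Pros1: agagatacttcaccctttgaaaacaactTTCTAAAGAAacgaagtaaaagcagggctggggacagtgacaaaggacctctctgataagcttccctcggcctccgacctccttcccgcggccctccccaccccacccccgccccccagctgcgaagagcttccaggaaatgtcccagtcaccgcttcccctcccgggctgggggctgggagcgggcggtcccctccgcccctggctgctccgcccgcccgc
Ncoa7: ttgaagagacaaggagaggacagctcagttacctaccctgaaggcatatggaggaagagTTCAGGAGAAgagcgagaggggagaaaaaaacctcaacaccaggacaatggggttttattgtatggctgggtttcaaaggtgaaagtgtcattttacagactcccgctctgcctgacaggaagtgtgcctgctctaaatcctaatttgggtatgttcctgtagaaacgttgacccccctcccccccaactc
Il18r1: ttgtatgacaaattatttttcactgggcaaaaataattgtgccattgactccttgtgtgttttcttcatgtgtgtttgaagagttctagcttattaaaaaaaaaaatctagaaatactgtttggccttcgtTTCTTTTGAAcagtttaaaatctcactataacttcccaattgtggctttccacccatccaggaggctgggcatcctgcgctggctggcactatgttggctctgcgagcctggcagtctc

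Among the receptors and signal carriers of IL-4 and IL-7, no gene passed. Of 22 tested members (receptor chains, JAK kinases, STATs and associated phosphatases), 0 rose and 0 fell, and their median change was 0.15 against 0 for all genes. Il4ra, which encodes the IL-4 receptor alpha chain, read 10.67 and 10.52 with IL-7 and 13.25 and 11.98 with IL-4, so the arrays did not overlap, but the 2 IL-4 arrays differed by over 1 and the adjusted p was 0.169. It passed without IL-4 array 2 (adjusted p = 0.0441), where 4 genes of the list were up. With replicate 2 of memory cells in medium left out, Il4ra (adjusted p = 0.00348) and Jak3 (adjusted p = 0.0399) were up and Il7r (adjusted p = 0.0383) was down. Jak3, the kinase bound to the common gamma chain, read 7.59 and 7.71 with IL-7 and 9.24 and 8.20 with IL-4 (adjusted p = 0.184). Il7r read 11.90 and 11.41 with IL-7 and 11.06 and 10.55 with IL-4 (change -0.85, adjusted p = 0.465). Stat6 itself changed by 0.10.

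Of 17 feedback inhibitors of cytokine signalling, only Spsb1, described above, passed. Socs1, an inhibitor of JAK kinases that IL-4 is known to induce, read 7.15 and 7.31 with IL-7 and 8.52 and 8.33 with IL-4, a change of 1.20 that did not pass (adjusted p = 0.0814). Sh2b3, the adaptor LNK, changed by 0.98 (adjusted p = 0.146), and Cish by 0.65.

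Of 20 tested genes of the STAT6 and type 2 response, 2 rose and 0 fell (10% passed, against 1.26% of all genes tested), with a median change of 0.58. A further 11 genes of that list, Il4, Il5, Il13 and Il10 among them, were too dim to be tested. Xbp1, a transcription factor of the unfolded protein response and of secretory cells, read 9.84 and 10.54 with IL-7 and 13.34 and 12.66 with IL-4, a rise of 2.80 (SE 0.41, adjusted p = 0.00243). Of the 3 other Xbp1 probe sets, all dimmer, 2 rose by 2.96. The dimmest changed by 1.20 and did not pass. Gfi1, a transcriptional repressor, rose from 7.74 and 8.86 to 9.76 and 10.30, by 1.73 (SE 0.31, adjusted p = 0.0106), to near the ex vivo level of 10.45 and 10.09. With the first IL-7 array left out, neither passed (adjusted p = 0.0604 for Xbp1 and adjusted p = 0.153 for Gfi1). Bcl6, a repressor tied to memory and follicular T cells, read 5.18 and 5.80 with IL-7 and 8.14 and 7.74 with IL-4, and its change of 2.45 lay just outside the threshold (adjusted p = 0.0502). It passed without IL-4 array 2 (adjusted p = 0.0485). The list's median change came to 0.03 with the second IL-4 array left out and to 0.09 with the first IL-7 array left out.

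Among 19 effector and memory transcription factors, Ikzf3 rose and Runx3 fell (10.5% passed, against 1.26% of all genes tested). Ikzf3, which encodes the Ikaros family factor Aiolos, read 6.90 and 7.74 with IL-7 and 8.35 and 8.41 with IL-4, a rise of 1.06 (SE 0.24, adjusted p = 0.0434). Runx3, a factor of CD8 lineage commitment, read 10.58 and 10.41 with IL-7 and 9.56 and 9.78 with IL-4, and fell by 0.83 (SE 0.17, adjusted p = 0.0368). Eomes read 4.83 and 7.16 with IL-7 and 7.32 and 9.03 with IL-4. In both groups array 2 of Eomes was the brighter one, and its change of 2.18 did not pass (adjusted p = 0.187), though it did without IL-7 array 2 (adjusted p = 0.0292). Id2, an inhibitor of E proteins, read 10.52 and 10.65 with IL-7 and 8.63 and 9.62 with IL-4, a change of -1.46 (adjusted p = 0.0699). Of 17 naive and stem-like factors, Satb1, a chromatin organiser of T cells, rose by 0.90 (SE 0.19, adjusted p = 0.0404), from 12.13 and 11.73 to 12.80 and 12.86, and 0 fell. Ikzf3 missed the threshold without IL-7 array 1 or either IL-4 array (adjusted p 0.0672 to 0.499), Runx3 without either IL-7 array or IL-4 array 1 (adjusted p 0.122 to 0.306), and Satb1 without each of the 4 arrays in turn (adjusted p 0.0605 to 0.381). The other tested probe sets of Ikzf3 and Runx3 did not pass.

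The surface and effector genes of memory cells that passed were all lower with IL-4. Of 27 tested members of the memory list, 0 rose and 3 fell (Vim, Il18r1 and Nkg7), against 0.879% and 0.378% of all genes tested. A negative change was seen in 23, with a median of -0.28 against 0 for all genes. The naive surface list leaned the same way, with 16 of 20 negative and a median of -0.50. Crip1 (-1.41), S100a6 (-1.36), S100a10 (-1.23) and Anxa2 (-1.11), all of them known as memory or effector genes, did not pass. Of 23 cytotoxic and cytokine genes, Nkg7 alone fell and 0 rose. Gzma, which encodes granzyme A, read 5.30 and 5.65 with IL-7 and 7.61 and 8.88 with IL-4, against 8.01 ex vivo, and its change of 2.77 lay just outside the threshold (adjusted p = 0.0517). Tnf read 8.55 and 8.39 with IL-7 and 6.37 and 6.87 with IL-4 (change -1.85, adjusted p = 0.0745), and Gzmb changed by -1.17 and Ifng by -0.10 without passing. Among 14 NK-type receptors and adaptors only Klrd1 passed. Klrk1, the NKG2D gene, lay at the filter value on all 4 arrays, between 3.91 and 4.12.

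Of 20 naive surface genes, Treml2 rose, Ecm1 and Cd55 fell (15% passed, against 1.26% of all genes tested), and the median change was -0.50. Treml2, a receptor of the TREM family, rose from 8.98 and 9.03 to 11.03 and 10.44, by 1.73 (SE 0.34, adjusted p = 0.0217). Cd55, which encodes a complement regulator, fell from 7.34 and 7.63 to 6.57 and 6.26, by 1.08 (SE 0.23, adjusted p = 0.0377). Treml2 missed the threshold without either IL-7 array or IL-4 array 1 (adjusted p 0.129 to 0.235), and Cd55 without each of the 4 arrays in turn (adjusted p 0.0788 to 0.311). Of 29 homing and chemokine receptors 0 rose and 0 fell. Cxcr6, a receptor of tissue-resident cells, read 8.11 and 7.76 with IL-7 and 11.98 and 10.31 with IL-4, a change of 3.21 just outside the threshold (adjusted p = 0.0506), while its second probe set changed by 3.26 and passed when all probe sets were tested (adjusted p = 0.0131). Without IL-4 array 2, Cxcr6 passed (adjusted p = 0.0169). Of 22 receptors for other cytokines only Il18r1 passed. Tgfbr1, a chain of the TGF-beta receptor, read 8.67 and 8.44 with IL-7 and 10.21 and 9.70 with IL-4 (change 1.40, adjusted p = 0.0724). In the list of 24 costimulatory and inhibitory receptors the 2 fallers, Ctla2a and Ctla2b, encode protease inhibitors and no receptor, and 0 of the receptors passed.

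Signalling genes downstream of the T cell receptor held 2 risers among 27 (7.41% passed, against 1.26% of all genes tested). Sh2d2a, which encodes the adaptor TSAd, rose from 8.48 and 8.60 to 10.35 and 9.77, by 1.52 (SE 0.23, adjusted p = 0.00311). Rasgrp1, the exchange factor that activates Ras in T cells, rose from 11.43 and 10.93 to 12.71 and 12.54, by 1.44 (SE 0.32, adjusted p = 0.0451). Sh2d2a lost the call when the first IL-7 array (adjusted p = 0.0592) or the first IL-4 array (adjusted p = 0.0531) was left out, and Rasgrp1 without either IL-7 array or IL-4 array 1 (adjusted p 0.135 to 0.394). Of 29 MAP kinase and tyrosine phosphatases, Dusp10 and Ptpn3 rose and 0 fell (6.9% passed, against 1.26% of all genes tested). The next member by size, Ptpre, changed by 0.56, so these 2 stood well apart from the rest of the list in size of change. Of 28 immediate early genes, among them Fos, Jun and the Egr and Nr4a genes, 0 passed, with changes between -1.02 and 0.86. Several of them, picked after their values were seen, followed the replicate number in both groups. Nr4a1, a nuclear receptor gene induced by T cell receptor signals, read 6.88 and 9.62 with IL-7 and 6.70 and 10.20 with IL-4, and Nr4a2 read 3.57 and 7.62 with IL-7 and 3.38 and 8.50 with IL-4. Gadd45b read 6.32 and 10.26 with IL-7 and 6.83 and 10.10 with IL-4. On these genes array 2 of each group was the higher one by over 2 units, and IL-4 made no comparable difference.

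Interferon-related genes mostly had positive changes. Of 29 interferon-stimulated genes, 3 rose and 0 fell (10.3% passed, against 1.26% of all genes tested). A positive change was seen in 26, and the median change was 0.82. Both IL-4 arrays lay above both IL-7 arrays for 18 of the 29, against 19.3% of all genes. Of 13 guanylate binding proteins and immunity GTPases, with the interferon regulatory factors Irf1 and Irf8, 4 rose (30.8%). All 13 had a positive change and the median was 1.13. The arrays were separated upward for 11 of the 13. Members of these lists are known to be induced together, so their genes are not independent of each other. With a block for the replicate number more members of both lists were higher, as given in the part on processing.

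Irf7, the factor that amplifies type I interferon responses, read 7.54 and 7.90 with IL-7 and 10.12 and 9.42 with IL-4, a rise of 2.05 (SE 0.35, adjusted p = 0.00893). Rtp4 rose from 7.99 and 8.41 to 9.81 and 10.59, by 2.00 (SE 0.30, adjusted p = 0.00311). Stat2, a subunit of the interferon-activated factor ISGF3, rose from 5.56 and 5.89 to 7.22 and 7.06, by 1.42 (SE 0.30, adjusted p = 0.0362). Ifit3, whose antiviral protein is a classical interferon product, read 6.81 and 7.95 with IL-7 and 9.01 and 10.08 with IL-4. Its change of 2.17 did not pass (adjusted p = 0.156), but did with a block for the replicate number (adjusted p = 0.00373). For Mx2, Eif2ak2 and Ifi35 the changes were -0.02, 0.03 and -0.08, so some members did not move.

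Gbp2 read 9.70 and 11.11 with IL-7 and 11.86 and 12.24 with IL-4, a rise of 1.64 (SE 0.37, adjusted p = 0.0459). Irgm1, a GTPase of defence against intracellular microbes, rose from 6.97 and 7.32 to 9.14 and 8.39, by 1.62 (SE 0.29, adjusted p = 0.0133). Ifi47 rose by 1.17 and Gbp7 by 1.13. In both lists IL-7 array 1 was the lower of the 2 IL-7 arrays for Irf7, Rtp4, Stat2, Gbp2, Irgm1 and Ifi47, and without it 0 members of either list passed. Without IL-7 array 2, 2 interferon-stimulated genes and 4 GTPase genes passed. Without IL-4 array 1 the counts were 2 and 1, and without IL-4 array 2 they were 4 and 2. Without the memory array in medium, replicate 2, they were 6 and 5.

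**Figure D2:**
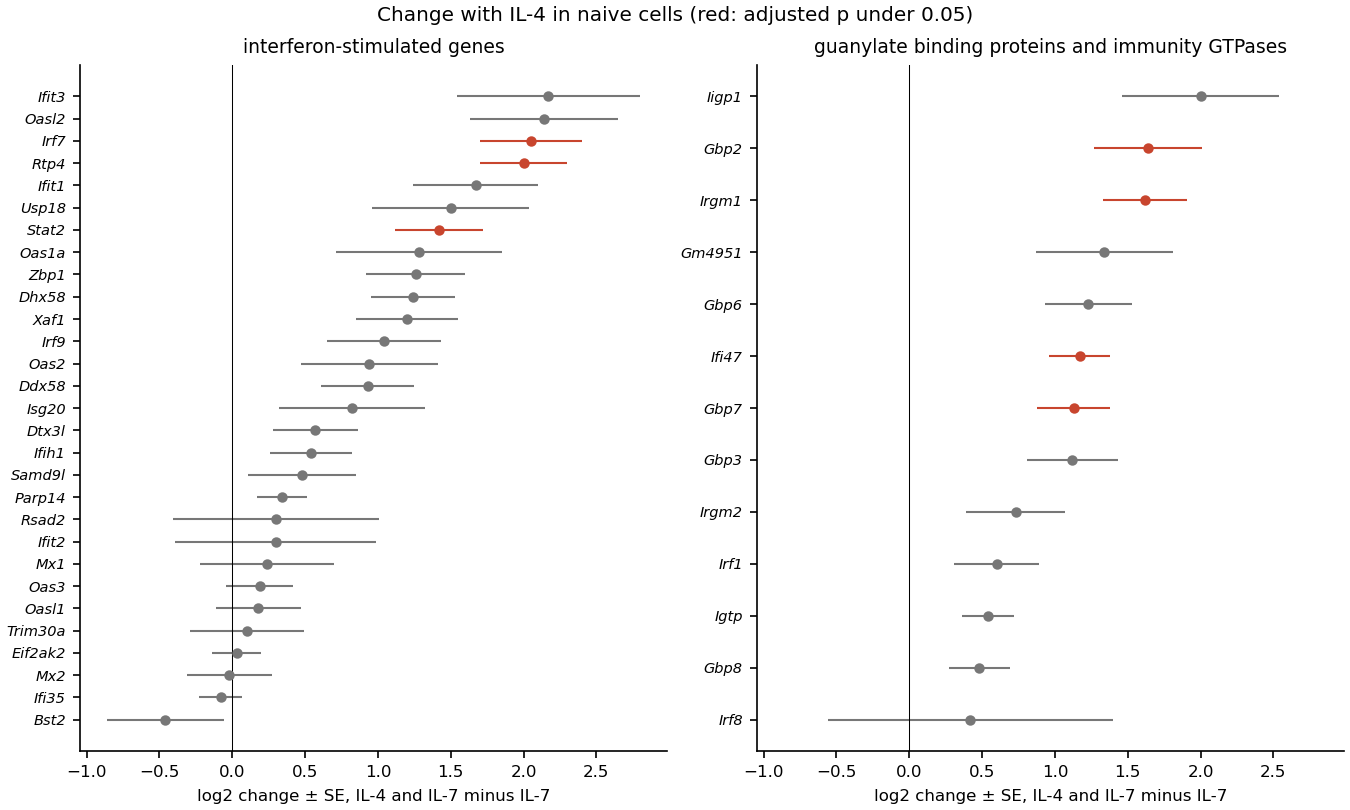
Change with IL-4 in naive cells (log2, with its SE) for the 29 interferon-stimulated genes and the 13 genes of the GTPase list; red points passed the test at an adjusted p under 0.05. The points lie mostly to the right of 0, with medians of 0.82 and 1.13, while 3 and 4 genes passed.

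The class I antigen processing genes, which interferons also induce, held 0 passing genes among 16. Tap1, a subunit of the peptide transporter, read 10.25 and 10.68 with IL-7 and 11.45 and 10.92 with IL-4 (change 0.72, adjusted p = 0.181), B2m changed by 0.10 and the immunoproteasome genes Psmb8 and Psmb9 by -0.04 and 0.00.

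In the class II pathway, accessory genes moved while genes of the presenting molecules were low and did not pass. H2-DMa, which encodes the alpha chain of the peptide editor DM, read 10.50 and 10.77 with IL-7 and 13.19 and 13.28 with IL-4, a rise of 2.59 (SE 0.18, adjusted p = 1.75e-06). H2-Ob, a chain of DO, the inhibitor of DM, read 8.46 and 8.22 with IL-7 and 6.63 and 6.52 with IL-4, and fell by 1.76 (SE 0.26, adjusted p = 0.00252). H2-DMb2, a beta chain gene of DM that was chosen after its values were seen, rose from 4.88 and 4.81 to 6.21 and 6.29, by 1.40 (SE 0.21, adjusted p = 0.00252), and 2 further probe sets of it rose by 3.52 and 3.77. It has a close copy in the genome, so its signal may be shared. By contrast H2-Aa lay between 3.49 and 3.76 on the 4 arrays, H2-Ab1 between 4.01 and 4.50, and Ciita, the master regulator of class II genes, between 4.37 and 4.63. H2-Eb1 lay higher, between 5.01 and 5.24, above the filter value of 4.06, and changed by -0.20 without passing. Cd74, the invariant chain gene, read 6.23 and 8.40 with IL-7 and 6.15 and 7.81 with IL-4, so it followed the replicate number and not the treatment. H2-DMa is also the gene behind the summed level of the class II marker list, which was 2020 and 2520 with IL-7 and 9650 and 10400 with IL-4. The other members of that list that mark antigen-presenting cells, Itgax and Flt3, lay between 4.06 and 5.02. H2-DMa passed without any 1 of the 4 arrays, and H2-Ob lost its call with the first IL-7 array left out (adjusted p = 0.0565).

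Metabolic lists each held a single large riser or none. Of 22 genes of glucose transport and glycolysis only Slc2a6 passed. The main glucose transporter genes Slc2a1 and Slc2a3 changed by 0.30 and -0.56, and Hk2, the gene of the hexokinase that traps glucose in the cell, by -0.01. Of 22 NRF2 antioxidant and carbonyl-reducing genes only Cbr3 passed, and its paralog Cbr1 changed by -0.47. Of 26 genes of the amino acid and unfolded protein responses only Xbp1 passed, and Hspa5, the gene of the chaperone BiP, changed by 0.66. Of 29 genes of cholesterol and fatty acid synthesis and of 27 genes of the respiratory chain, 0 passed in either list. The median changes of these 5 lists lay between -0.09 and 0.18, but single arrays moved them. That of the amino acid and unfolded protein list, 0.18, was -0.37 without the first and 0.47 without the second IL-7 array, and -0.30 without the second IL-4 array. That of the respiratory chain, -0.09, was 0.17 without the first IL-4 array.

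**Figure D3:**
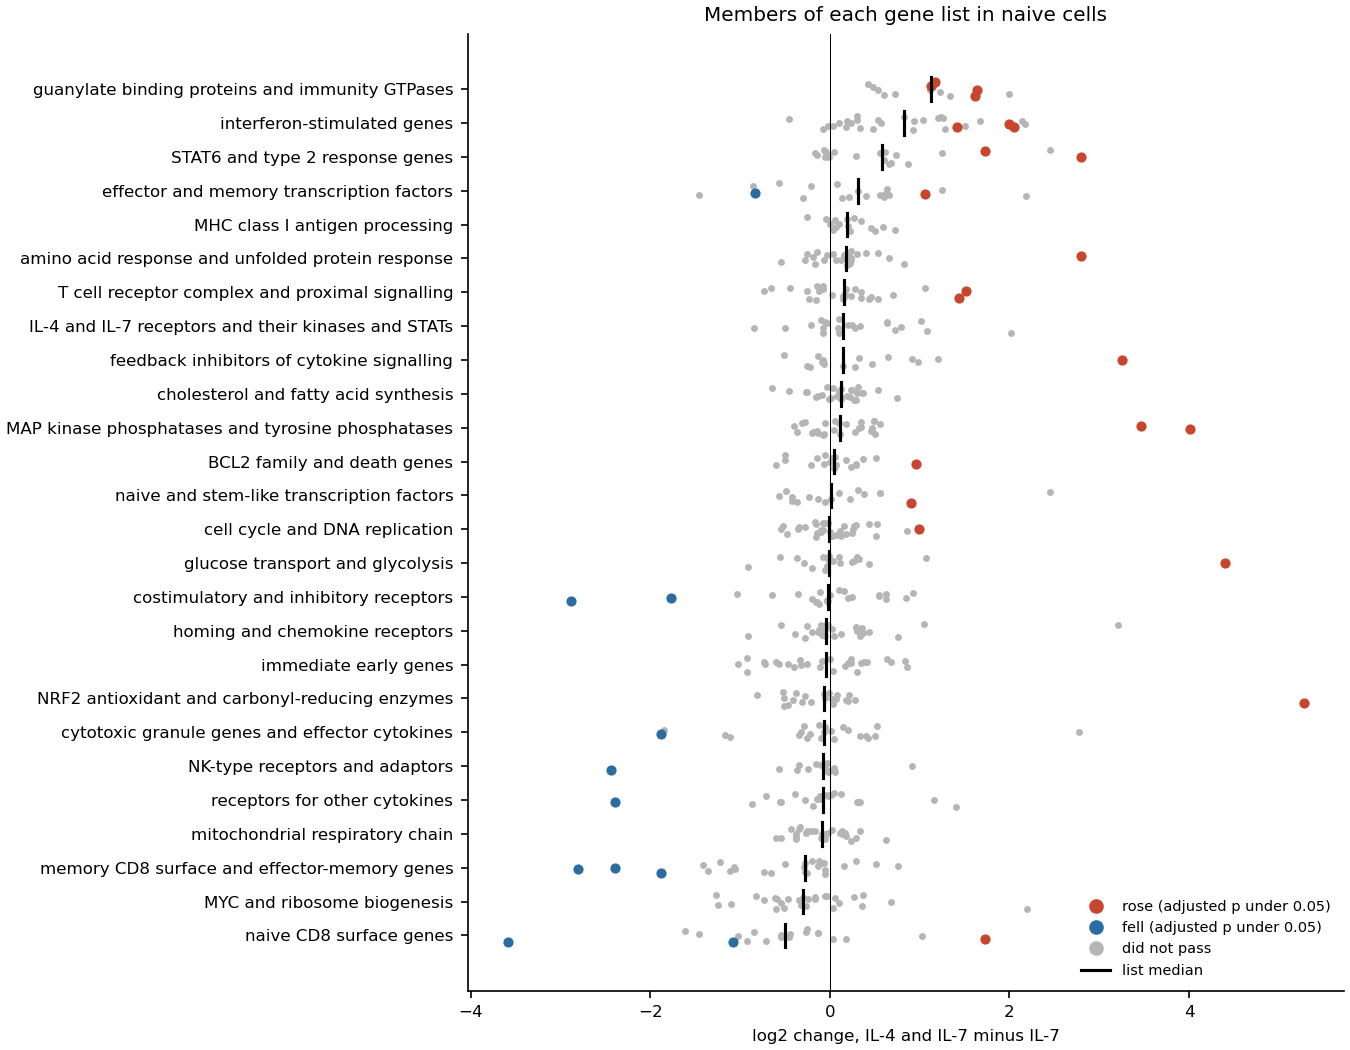
Change with IL-4 (log2) of every tested member of 26 gene lists, ordered by the list median (black bar); red points rose, blue points fell and grey points did not pass. The 2 interferon-related lists have the highest medians (1.13 and 0.82), and large risers such as Cbr3, Slc2a6 and Dusp10 lie far from the other members of their lists, Dusp10 together with Ptpn3.

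Growth and division genes gave little. Of 29 genes of MYC and ribosome biogenesis, 0 passed and the median change was -0.30, and Myc itself changed by -0.47. That median was -0.11 without the second IL-7 array, -0.13 without the first IL-4 array and -0.46 without the second. Mxd1, a MYC antagonist, read 8.27 and 8.90 with IL-7 and 10.89 and 10.67 with IL-4, against 11.08 ex vivo, and its change of 2.20 did not pass (adjusted p = 0.147), though it did without the memory array in medium, replicate 2 (adjusted p = 0.000499). Of 32 cell cycle and DNA replication genes only Mcm2, a subunit of the replicative helicase, rose, from 9.45 and 9.43 to 10.65 and 10.22, by 0.99 (SE 0.21, adjusted p = 0.0384). Mki67 changed by -0.02. Of 20 genes of the BCL2 family and cell death only Birc3, which encodes the inhibitor of apoptosis cIAP2, rose. It went from 10.19 and 10.55 to 11.42 and 11.26, by 0.96 (SE 0.20, adjusted p = 0.0362). The other tested Birc3 probe set, a dimmer one, changed by 0.14 and did not pass. Bcl2 read 11.56 and 11.25 with IL-7 and 11.58 and 11.26 with IL-4, above its ex vivo mean of 8.99 in both cultures. Mcm2 missed the threshold without either IL-7 array or IL-4 array 1 (adjusted p 0.221 to 0.358), and so did Birc3 (adjusted p 0.0674 to 0.356).

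The response of naive cells was then set beside that of memory cells given the same cytokines. The 2 comparisons share no array, but both take their spread from the same fit. IL-4 raised 167 genes (1.21%) and lowered 82 (0.595%) in memory cells in IL-7. Of the risers, 64 were shared, which is 52.9% of those of naive cells and 38.3% of those of memory cells. Of the fallers, 12 were shared, 23.1% and 14.6%. The 121 naive risers had a median change of 1.61 in naive and 1.19 in memory cells, and 120 of them had a positive change in memory cells. The 52 naive fallers had a median change of -1.30 in naive and -0.48 in memory cells, and 34 of them had a negative change there. Across the genes tested the 2 changes correlated at r = 0.313, a description across genes that are not independent.

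**Figure D4:**
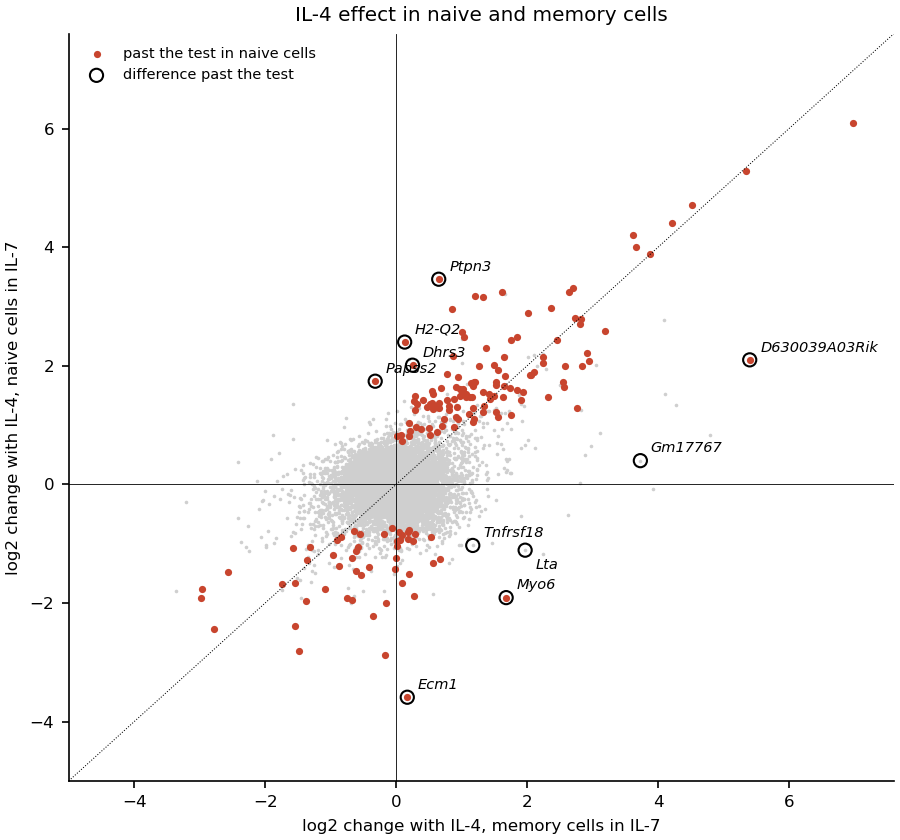
Change with IL-4 (log2) of each gene tested in memory cells (horizontal) and naive cells (vertical), both in IL-7; red points passed in naive cells, rings mark the 10 genes whose difference passed, and the dotted line is equality. Cbr3, Pros1, Slc2a6 and Frmd4b lie at the upper right near the line, and Ecm1 and Myo6 lie below 0 for naive cells only.

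A difference between the responses was itself tested, and 10 of 13770 genes passed (0.0726%). The naive change minus the memory change was positive for 4 (0.029%) and negative for 6 (0.0436%). A gene that passed in only one cell type is otherwise not shown to differ. Ptpn3, a tyrosine phosphatase gene with FERM and PDZ domains, read 3.44 and 3.87 in naive cells with IL-7 and 7.31 and 6.92 with IL-4, but 3.62 and 3.53 against 4.61 and 3.84 in memory cells. The naive change exceeded the memory change by 2.81 (SE 0.37, adjusted p = 0.00583). Dhrs3, a retinal reductase gene, rose by 2.01 in naive cells and changed by 0.25 in memory cells, a difference of 1.76 (adjusted p = 0.0154). Papss2, which encodes the synthase of the sulfate donor PAPS, rose by 1.74 and changed by -0.32, a difference of 2.05 (adjusted p = 0.0154) that was 0.44 (adjusted p = 0.46) with the mean of its probe sets. H2-Q2, a class I gene of a multigene family whose copies may share signal, rose from 2.73 and 3.13 to 5.33 and 5.34 in naive cells, a difference of 2.28 (adjusted p = 0.0154). The IL-7 levels of Ptpn3, Dhrs3 and H2-Q2 lay under the filter value, so the sizes of these rises are uncertain. For Ptpn3 and H2-Q2 the 2 naive IL-4 arrays alone were enough to meet the filter, and H2-Q2 averaged 3.05 over all 18 arrays. H2-Q2 and Dhrs3 were not tested with the stricter filter.

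The genes with a negative difference, naive minus memory, differed in kind. In Ecm1 the naive fall of 3.59 stood against a change of 0.17 in memory cells, which already lay at 6.05 and 6.15 with IL-7, so the difference was -3.76 (SE 0.35, adjusted p = 0.00045). Myo6 was the only gene called in both with opposite signs. It read 8.15 and 7.20 with IL-7 and 5.89 and 5.64 with IL-4 in naive cells, but 7.65 and 6.63 with IL-7 and 8.56 and 9.08 with IL-4 in memory cells, where it rose by 1.68 (adjusted p = 0.0177), and the difference was -3.59 (SE 0.47, adjusted p = 0.00583). With the mean of its probe sets the difference was -2.15 and missed the threshold (adjusted p = 0.058). The unnamed transcript gene D630039A03Rik rose in both, from 9.09 and 8.88 to 11.01 and 11.15 in naive cells and from 4.97 and 4.82 to 10.37 and 10.23 in memory cells. The 2 IL-4 groups thus ended within 1 unit of each other, and the difference was -3.31 (adjusted p = 0.00205). Gm17767 changed by 0.40 in naive and rose by 3.73 in memory cells. Lta, the lymphotoxin alpha gene, read 9.13 and 9.14 with IL-7 and 7.49 and 8.57 with IL-4 in naive cells, but rose by 1.97 in memory cells. Tnfrsf18, the gene of the costimulatory receptor GITR, changed by -1.03 in naive cells and rose by 1.17 in memory cells. The differences of Lta (-3.08) and Tnfrsf18 (-2.20) had an adjusted p of 0.0462, and missed the threshold with no filter, with the stricter filter and with median centring (adjusted p 0.0506 to 0.0833).

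**Figure D5:**
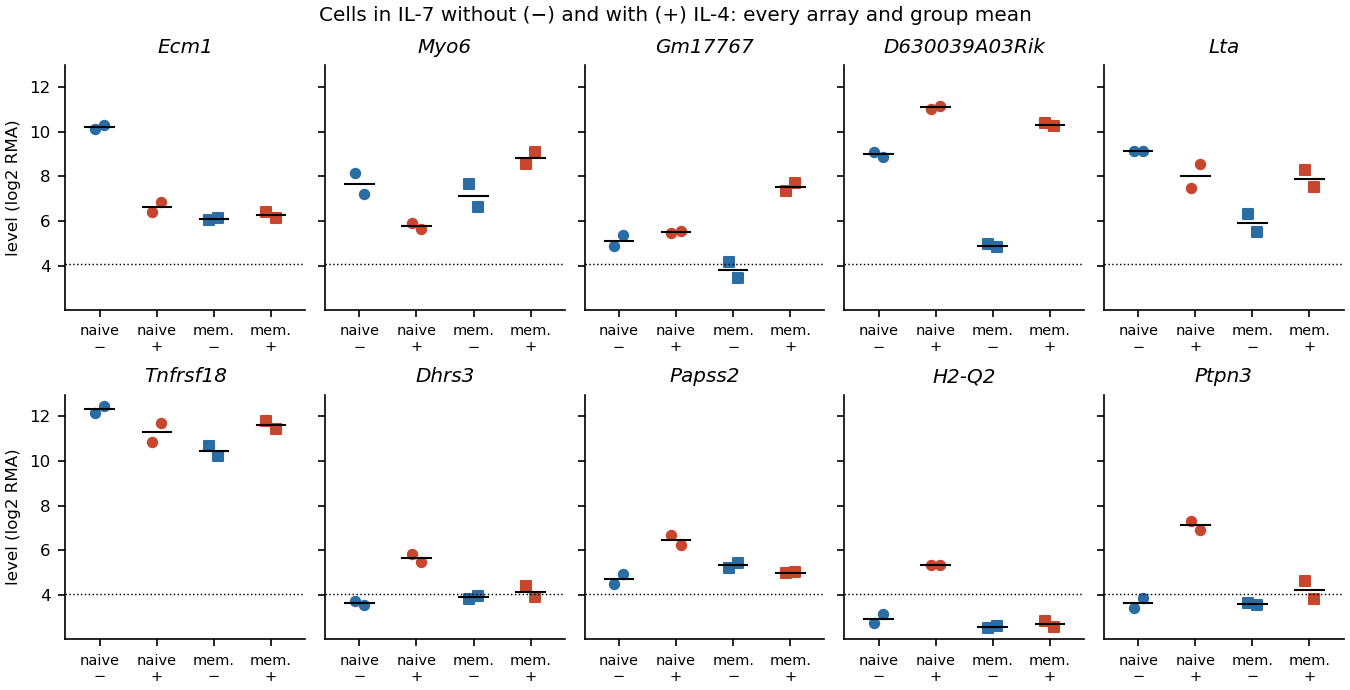
Level (log2 RMA) of the 10 genes whose IL-4 effect differed between naive (circles) and memory (squares, mem.) cells, without (blue) and with (red) IL-4, all in IL-7; bars are means of 2 arrays and the dotted line is the filter value of 4.06. Ecm1 falls only in the naive cells, which start about 4 units above memory cells, and Myo6 moves in opposite directions.

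The test of the difference was sensitive to single arrays of either cell type. Ecm1 and D630039A03Rik passed without any 1 of the 8 arrays involved. Without memory IL-4 and IL-7 array 2, the other 8 genes missed the threshold (adjusted p 0.0512 to 0.0983). Ptpn3 also missed it without naive IL-7 array 1 (adjusted p = 0.0631) or naive IL-4 array 1 (adjusted p = 0.053). H2-Q2, Papss2, Dhrs3, Lta and Tnfrsf18 each missed it without several further arrays (adjusted p 0.0572 to 0.267). For the largest risers and Klrd1 a difference between cell types was not shown. That for Frmd4b was -0.88, for Cbr3 -0.08, for Pros1 0.20, for Slc2a6 0.18 and for Klrd1 0.34, and none passed (adjusted p 0.855 to 0.956).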

How the data were processed

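The deposited values are log2 expression levels per probe set on 18 arrays, made by the authors with RMA (background correction, quantile normalization and summary of probes), per the submitters' processing notes, which also name limma without a version. The numbers of an array do not give a read depth, and 2 arrays per group limit the precision. RMA sets all arrays to a like distribution, so a shift of all genes would not be seen.

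From these values, each of the 18194 genes with a probe set of 1 symbol (34958 of 45101 probe sets; 932 had several symbols and 9211 none) was given by its probe set with the highest mean over all arrays. Genes above the 40th percentile (4.06) on at least 2 arrays were tested (13770), and 4424 were left out as dim. Symbols came from the platform annotation and were checked through 34754 probe sets with an Entrez ID in the RefSeq table (GRCm38.p6). limma 3.58.1 in R 4.3.3 fitted 8 groups over 18 arrays (10 residual degrees of freedom, no covariate), and the contrasts were tested two-sided with Benjamini-Hochberg adjustment at 0.05. All 8 groups were used because 2 against 2 arrays estimate the spread poorly. The procedure was tested on simulated data. Figures were drawn with matplotlib 3.10.9.

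The comparison, the 26 gene lists and the 9 marker lists were chosen with earlier results of these data known. The genes named are the 14 largest called rises and falls, up to 6 largest called differences between cell types in each direction, per list the called members and the 2 others with the largest changes, and Il4ra, Il7r, Bcl2, Eomes, Cd8a, Cd8b1, Klrd1 and Klrk1 whatever their values. Other members of the lists were named after their values were seen, as were the genes said to be so. Alternatives tried were no filter or a stricter one, the mean of probe sets, median centring, an intensity trend, fewer arrays, a replicate block and each array left out.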

Additional observations from a re-analysis of the deposited data

Results flagged for a closer look

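For 10 genes the IL-4 effect in naive cells differed from that in memory cells by the test of the difference itself in limma (adjusted p under 0.05). The naive change minus the memory change was 2.81 for Ptpn3, 2.28 for H2-Q2, 2.05 for Papss2 and 1.76 for Dhrs3. It was -3.76 for Ecm1, -3.59 for Myo6, -3.32 for Gm17767, -3.31 for D630039A03Rik, -3.08 for Lta and -2.20 for Tnfrsf18. H2-Q2, Ptpn3 and Dhrs3 lay under the filter value of 4.06 on both naive IL-7 arrays.

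Probe sets with no gene symbol or with several were outside the main comparison. Of 5307 of them that were bright enough to test, 14 were higher and 5 lower with IL-4 in naive cells.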

How the results depend on the processing

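The counts of genes higher, lower and differing between cell types were 121, 52 and 10. Fitted on the 6 naive arrays alone, 47 were higher and 8 lower, and on the 4 compared arrays alone, 25 and 4. Without memory_medium replicate 2 they were 192, 98 and 20, and these included all 121, 52 and 10. The stricter filter left 6 differences. Over the arrays left out in turn, the count higher ranged from 42 (without naive IL-7 replicate 1) to 233 (without naive IL-4 and IL-7 replicate 2). The count lower ranged from 8 to 439 without the same arrays, and the count of differences from 2 (without memory IL-4 and IL-7 replicate 2) to 368 (without naive IL-4 and IL-7 replicate 2). The cause was not tested. The other settings (no filter, mean of probe sets, median centring, intensity trend) kept these 3 counts within 1.5 times. With the replicate block the counts were 117, 34 and 12, and 10 of the 29 interferon-stimulated genes and 5 of the 13 GTPase genes were higher. Bcl6 (adjusted p = 0.00314), Ifit3 (adjusted p = 0.00373), Eomes (adjusted p = 0.025), Oasl2 (adjusted p = 0.0404) and Gzma (adjusted p = 0.0466) then passed. Other genes lost the call with the block, among them Frmd4b, which had the largest rise (adjusted p = 0.0575). Spsb1, Vim, Nkg7, Ctla2a, Ctla2b, Neurl3, Fxyd7, Ikzf3, Satb1, Treml2, Cd55, Birc3, Cfl1 and Cotl1 also lost it (adjusted p 0.0578 to 0.137). The differences of Papss2, Dhrs3 and Tnfrsf18 did not pass with the block (adjusted p 0.069 to 0.0993). No label says that replicate numbers pair the arrays. Deviations of same-numbered arrays correlated at 0.51 between the compared groups, and at 0.14 and -0.13 with the ex vivo arrays. None of the 78 named genes that passed, and none of the 10 differences, changed sign in any setting. Of the 136 named genes, 8 that did not pass changed sign in some setting, as did the medians of 11 of the 26 lists. Among the latter were the effector transcription factors, from 0.31 to -0.05 without naive IL-7 replicate 1, the immediate early genes, from -0.04 to 0.51 without naive IL-4 and IL-7 replicate 1, and the cytotoxic genes, from -0.07 to 0.28 without naive IL-7 replicate 2. Over the named genes, 1432 repeats kept their side of the threshold, 273 lost it and 59 gained it. Of the repeats of list medians, 213 stayed within the spread between replicates and 21 moved beyond it, among them the STAT6 list, from 0.58 to 0.05 without the filter, and the respiratory chain list, from -0.09 to 0.17 without naive IL-4 and IL-7 replicate 1. Dim genes limit the size of changes: 8 risers had an IL-7 mean, and 2 fallers an IL-4 mean, at or under the filter value.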

Other observations

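The genes in this part were chosen after their values were seen, from those that passed the same limma test, and are given as values. Among genes of lymphocyte signalling, Ppp3cc, a catalytic subunit gene of calcineurin, rose from 7.62 and 7.88 to 10.46 and 9.99, by 2.48 (adjusted p = 0.000159). Dapp1, an adaptor gene of phosphoinositide signalling, rose from 8.45 and 8.48 to 10.22 and 10.17, by 1.73 (adjusted p = 0.000264). Trat1, an adaptor gene of the T cell receptor complex, rose from 8.32 and 8.53 to 10.64 and 11.08 (adjusted p = 0.0113). Plcg2, a phospholipase gene used mainly in B cells, fell from 7.37 and 7.40 to 6.32 and 6.53 (adjusted p = 0.0141). The arrays of the 2 groups did not overlap for any of these genes. Trat1 lost the call when the first (adjusted p = 0.146) or the second (adjusted p = 0.0711) IL-7 array was left out, and Plcg2 when either IL-7 array or the first IL-4 array was (adjusted p 0.119 to 0.154).

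Cfl1, the gene of the actin-severing protein cofilin, fell from 13.06 and 12.85 to 11.98 and 12.38 (adjusted p = 0.0426), and Cotl1 and Tagln2 fell by 0.78 and 1.05. The other tested Cfl1 probe set, a dimmer one, changed by -0.19 and did not pass. Gsn, the gelsolin gene, rose from 10.20 and 10.68 to 12.04 and 11.46 (adjusted p = 0.0232), Actn2 rose by 1.66 and Pdlim4 by 2.44. Pdlim4 passed without any 1 of the 4 arrays. Cfl1, Cotl1 and Tagln2 missed the threshold without either IL-7 array or IL-4 array 1 (adjusted p 0.0968 to 0.424), Gsn without the first array of IL-7 (adjusted p = 0.28) or of IL-4 (adjusted p = 0.262), and Actn2 without IL-4 array 1 (adjusted p = 0.0521).

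Cst7, which encodes the cathepsin inhibitor cystatin F, rose from 8.31 and 8.62 to 10.80 and 11.53, by 2.70 (adjusted p = 0.000804). Hsd11b1, the gene of the enzyme that regenerates active glucocorticoid, rose from 9.40 and 8.89 to 12.16 and 11.91, by 2.89 (adjusted p = 5.46e-05). Gata1 is best known from red cell precursors, mast cells and platelets. It rose from 4.61 and 4.95 to 6.89 and 6.66, by 2.00 (adjusted p = 0.00165), and the source of its signal was not tested. Tdgf1 rose by 2.96 and Septin4 by 2.79. These 5 genes passed without any 1 of the 4 arrays. Parp9, an interferon-induced gene outside the lists, rose from 9.87 and 9.83 to 11.50 and 11.15, by 1.47 (adjusted p = 0.00252), and also passed without any 1 of the 4 arrays.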
